A study of Mus musculus with 16 samples.

Results

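Liver RNA of mice that lacked Zfp36l1 in the liver was compared with liver RNA of wild-type mice, all on the control diet. The study's design text names wild-type (WT) and liver-specific Zfp36l1 knockout (LKO) mice on a control diet or on a diet containing ethanol, and the table holds 16 libraries in 4 groups of 4. The comparison used the 4 LKO and 4 WT libraries of the control diet, chosen by their treatment label. It covered the 11298 of 35275 gene IDs with at least 1 FPKM (fragments scaled to gene length and to sequencing depth) in at least 4 of the 16 libraries. WT animals on the control diet carried the normal gene and received no ethanol, and LKO animals on the control diet differed from them by the liver deletion alone as far as the labels go. The labels name no promoter or cell type that drove the deletion, and no strain, age, sex, diet composition or feeding time. They do not say whether the 4 libraries of a group are 4 animals beyond giving each a different number in its title, so p-values measure the spread between these libraries.

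ZFP36L1 belongs to a small family of zinc finger proteins that bind AU-rich stretches in the 3′ untranslated region (3′ UTR) of messenger RNA and recruit the enzymes that remove the poly(A) tail, so that the bound transcript decays. The other family members of the liver are ZFP36 (tristetraprolin) and ZFP36L2. The hormone FGF21, named in the study's title, and the bile acid enzyme CYP7A1 are among the products of transcripts reported to be bound by the family.

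A core motif that the family binds is the 7-mer TATTTAT, with U for T in the RNA. Windows of 30 bases around 1 copy of it are shown for 2 transcripts reported as targets (Fgf21, Cyp7a1), for the deleted gene itself, and for 2 genes described below that were higher in every LKO library (Cmas, Elovl3). They were read from the GENCODE M21 transcripts on GRCm38, 5′ to 3′ on the strand of the gene, and the capitals mark the motif.
Fgf21, chr7:45613938-45613967, minus strand: ggtatttatctTATTTATttattttagttt
Cyp7a1, chr4:6266794-6266823, minus strand: aatttttctcaTATTTATttaaaatattca
Zfp36l1, chr12:80108421-80108450, minus strand: ttatcaaaacgTATTTATtgccaaactatg
Cmas, chr6:142775634-142775663, plus strand: tgctgggatttTATTTATtgtaaagcaatg
Elovl3, chr19:46135046-46135075, plus strand: taaaatggagtTATTTATatttatatttag
The 3′ UTR of Fgf21 is 134 bases long and holds 4 copies, some of them overlapping. Those of Cyp7a1 and Zfp36l1 hold 3 copies each, that of Elovl3 holds 2 and that of Cmas 1. Of the 10523 protein-coding genes kept that had an annotated 3′ UTR, 3066 (29.1%) held at least 1 copy on the sense strand, so the motif is common.

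The 8 libraries held 19069903 to 24364276 reads. On the first principal component of the variation within groups, libraries 1 and 2 of either genotype scored above 0 and libraries 3 and 4 below 0. No label accounts for these sides. The share of reads from the mitochondrial genome was 5.57 to 6.66% in WT libraries 1 and 2 and 4.7 to 6.21% in LKO libraries 1 and 2, against 3.8 to 4.12% in libraries 3 and 4 of both genotypes. Each side held 2 libraries of each genotype, so differences within a side are given beside the main results. WT ethanol library 2 stands apart (9890475 reads, 22.5% mitochondrial). It is in neither group compared here, but it enters the fit through the shared estimate of the spread, and counts without it are given. Hepatocyte markers summed to 64300 to 78400 FPKM in WT and 61900 to 77900 in LKO, so the defining transcripts of the labelled tissue were abundant.

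Zfp36l1, the deleted gene (ENSMUSG00000021127, protein-coding, chr12:80107754-80113013, minus strand), was measured first because it checks the labels. It stood at 9.79, 9.3, 25.5 and 14.8 FPKM in WT libraries 1 to 4 and at 1.03, 0.836, 1.42 and 1.4 FPKM in LKO libraries 1 to 4. All LKO libraries lay far below all WT libraries, and WT library 3 was the highest of its group. In whole reads these values are 557 to 1857 in WT and 60 to 103 in LKO. The difference on the log2(FPKM + 1) scale was −2.77 (SE 0.321, limma, adjusted p = 0.00148), with −2.45 between the libraries on the first side and −3.09 on the second. The ratio of the mean FPKM values was 0.0789. In liver as a whole, fewer cells with the transcript and less transcript per cell cannot be told apart, here or for any gene below.

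Zfp36l1 was the 1 gene of 11298 (0.00885%) called at an adjusted p under 0.05, the threshold used throughout for a call. At an unadjusted p under 0.05 there were 390 genes (3.45%), below the share of 0.05 that the threshold passes on average without any difference. Of these genes, 90 (0.797%) were higher and 300 (2.66%) lower in LKO. These shares were 2.51% and 11.7% in the 8 control-diet libraries alone and 3.26% and 17.4% with libraries weighted by quality. With so few calls, genes are also described by whether their 4 LKO libraries all lay above or all below the 4 WT libraries. This held for 1045 genes (9.25%), 182 higher (1.61%) and 863 lower (7.64%). Of the 70 arrangements of 4 against 4 libraries, 1 separates a gene upward and 1 downward, so such genes also arise without a difference. The excess of lower genes depended on scaling: with each library scaled by the median of ratios, 433 were higher and 485 lower, and with quantile normalization 356 and 388. It remained with equal sums (137 higher, 888 lower) and with the upper quartile (241 higher, 751 lower). The median difference of all genes was −0.103 in the values as deposited and 0.00064 after scaling by the median of ratios, so differences below are best read against −0.103.

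**Figure D1:**
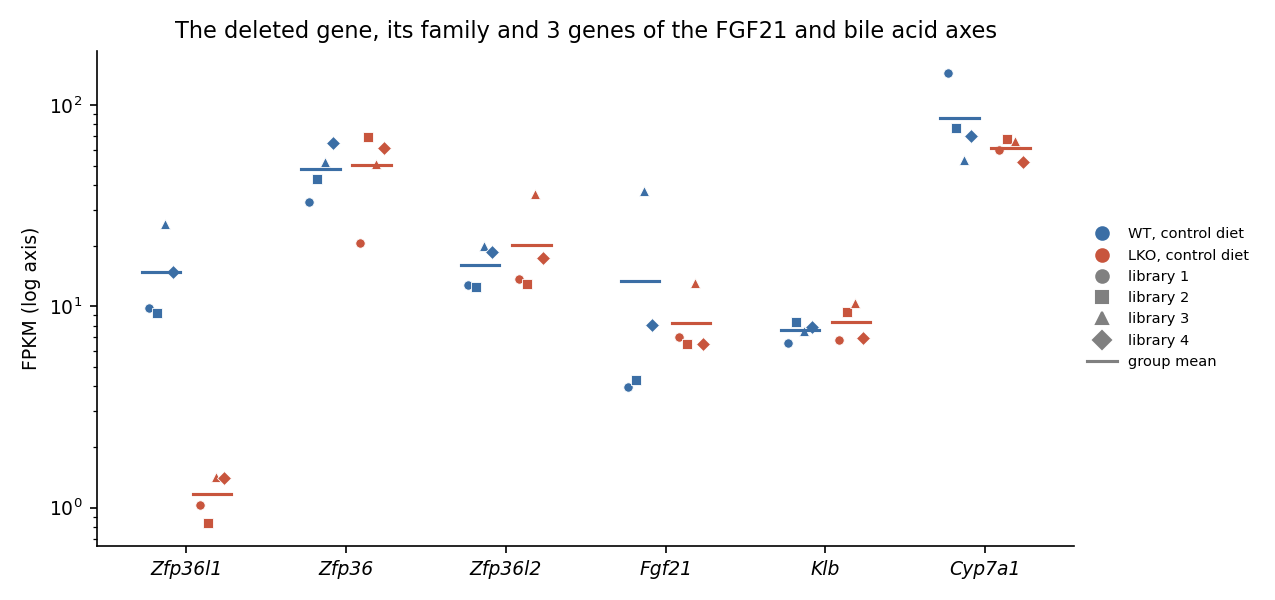
FPKM (log axis) of Zfp36l1, its relatives Zfp36 and Zfp36l2, and Fgf21, Klb and Cyp7a1 in each control-diet library (points, 4 WT and 4 LKO) with group means (horizontal lines). Zfp36l1 separates the genotypes (9.3 FPKM or more in WT, 1.42 or less in LKO), and the other 5 genes overlap.

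The relatives of the deleted gene were examined next. Zfp36 stood at 32.9, 43.1, 52.2 and 64.6 FPKM in WT and at 20.7, 69.2, 50.9 and 60.8 in LKO, with a difference of −0.023 (SE 0.659, adjusted p = 1). Zfp36l2 stood at 12.7, 12.5, 20 and 18.6 FPKM in WT and at 13.7, 12.9, 36.3 and 17.3 in LKO, with a difference of 0.22 (SE 0.481, adjusted p = 1). Both overlapped between genotypes, and the sign of each turned when 1 library was left out. In the FPKM scale, which accounts for gene length, the mean of Zfp36 in WT (48.2) was above those of Zfp36l2 (15.9) and Zfp36l1 (14.8), and the latter pair lay within their spread. The 16 kept AU-rich element binding proteins had a median difference of −0.287, and −0.178 after scaling by the median of ratios. Of them, 14 lay below 0, where 67.2% of all genes did, and 2 were lower without overlap, beside 7.64%. At an unadjusted p under 0.05, 1 was lower, beside 2.66% of all genes, and 0 were when any 1 library other than LKO library 3 was left out. With libraries weighted by quality 7 were, beside 17.4%. The 1 in the main fit was Rc3h1, which encodes the RNA-binding protein roquin-1, at 3.46 to 4.22 FPKM in WT and 1.77 to 3.07 in LKO. The 33 kept genes of deadenylation and decapping, the enzymes that the family recruits, had a median difference of −0.204 with 0 at an unadjusted p under 0.05, and 31 of them lay below 0, where 67.2% of all genes did. After scaling by the median of ratios their median was −0.089.

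Fgf21 (chr7:45613886-45615490, minus strand) encodes a hormone that the liver releases on fasting, ethanol and amino acid shortage. It stood at 3.95, 4.28, 37.2 and 8.05 FPKM in WT and at 7.04, 6.48, 13.1 and 6.47 in LKO. Library 3 was the highest of both groups, and the groups overlapped. The difference was −0.13 (SE 0.823, adjusted p = 1; exact permutation p = 0.914), and it turned to 0.53 without WT library 3. On the first side, the LKO libraries lay above the WT libraries by 0.60, and on the second below them by −0.86. Cyp7a1, the rate-limiting enzyme of bile acid synthesis, stood at 143.7, 76.9, 53.2 and 70.1 FPKM in WT and 59.8, 67.7, 65.9 and 51.9 in LKO (difference −0.39, SE 0.662, adjusted p = 1, and −0.11 without WT library 1). Its LKO libraries lay within the range of WT libraries except for library 4, which was slightly lower. Klb, the FGF21 co-receptor, stood at 6.54 to 8.39 FPKM in WT and 6.76 to 10.4 in LKO and overlapped as well (difference 0.11, SE 0.405, adjusted p = 1). Of the 12 genes put to the exact permutation test over 70 arrangements, only Zfp36l1 reached the smallest p it can give, 0.0286, and 0 passed after adjustment over the 12. With that smallest p, the adjusted value of a single separated gene is 0.343, so no such gene could pass. The reported targets of the ZFP36 family as a list, 32 of them kept, had a median of 0.022, with 17 above 0 and 15 below 0. The sign of that median was not stable, at −0.088 to 0.048 with 1 library left out and −0.055 with the filter set on the 8 control-diet libraries. None had an unadjusted p under 0.05, and the 1 that did not overlap was the receptor gene Notch1, which was lower, as 7.64% of all genes were without overlap (1.42 to 2.24 FPKM in WT, 0.732 to 1.12 in LKO).

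A few genes passed the threshold when the spread was estimated from other libraries. Without WT ethanol library 2, 5 genes were called (0.0443%), 2 higher (0.0177%) and 3 lower (0.0266%), namely Zfp36l1, Cmas, Snhg11, Cyp3a11 and Serpine2. With a term for the side as well, 9 were called (0.0797%), 4 higher (0.0354%) and 5 lower (0.0443%), which added Raet1e, Cyp2c38, Zap70 and Jazf1. The sides were taken from the same values, so p-values with that term are too small. With the 8 control-diet libraries alone, 13 were called (0.115%), 7 higher (0.062%) and 6 lower (0.0531%). Weighting libraries by their quality gave 260 (2.3%), 49 higher (0.434%) and 211 lower (1.87%). The 8 libraries with the side term, an alternative chosen after seeing the data, gave 410 (3.63%), 79 higher (0.699%) and 331 lower (2.93%).

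Cmas (chr6:142756686-142775714) encodes the enzyme that activates sialic acid for transfer to glycoproteins. It stood at 24.3, 25, 20 and 19.8 FPKM in WT and at 59.6, 43.8, 45 and 48.1 in LKO. The groups were far apart and each was tight. Its difference was 1.10 (SE 0.377, adjusted p = 1 over all 16 libraries, 0.0364 without WT ethanol library 2 and 0.0402 in the 8 control-diet libraries), with 1.02 on the first side and 1.18 on the second. Cyp3a11 (chr5:145854426-145879964), the main drug-metabolizing cytochrome of its subfamily in mouse liver, stood at 861, 693, 864 and 418 FPKM in WT and at 177, 209, 128 and 233 in LKO. Every LKO library was below every WT library, with a difference of −1.90 (SE 0.577, adjusted p = 0.0364 without WT ethanol library 2), and −2.0 and −1.79 on the sides. How reads were divided among the near-identical Cyp3a and Cyp2c genes is not given in the sources used here, so values of these genes are uncertain. Cyp2c38, another cytochrome, stood at 33.6, 36.9, 67.2 and 64.9 FPKM in WT and 20.3, 13.7, 18 and 27.3 in LKO.

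Jazf1, a zinc finger cofactor of transcription, was low but separate, at 0.333, 0.628, 0.224 and 0.741 FPKM in WT and 1.54, 2.08, 2.28 and 1.8 in LKO, which is 12 to 34 reads against 77 to 122. Snhg11, a host gene of small nucleolar RNAs, stood at 0.224 to 0.55 FPKM in WT and 1.88 to 5.03 in LKO. Serpine2, an inhibitor of extracellular serine proteases, stood at 0.82 to 1.64 FPKM in WT and 0.16 to 0.315 in LKO. Each of these 3 passed the filter through the genotype in which it was high: Snhg11 and Jazf1 reached 1 FPKM in 8 LKO libraries of both diets and in 1 and 2 WT libraries, and Serpine2 in 4 WT libraries, of which 1 was WT ethanol library 2, and 0 LKO libraries. Raet1e, a ligand of the NK cell receptor NKG2D, was at 1.15 to 2.65 FPKM in WT and 0.26 to 1.03 in LKO. Zap70, a kinase of the T cell receptor pathway, overlapped over all libraries and separated within the sides. It stood at 11.4 and 12.3 FPKM in WT against 22.8 and 21 in LKO on the first side, and at 4.85 and 5.43 against 9.7 and 12.3 on the second. The 18 markers of T, B and NK cells summed to 15.8 to 32.4 FPKM in WT and 18 to 34.8 in LKO, and their part in the Zap70 difference was not tested.

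**Figure D2:**
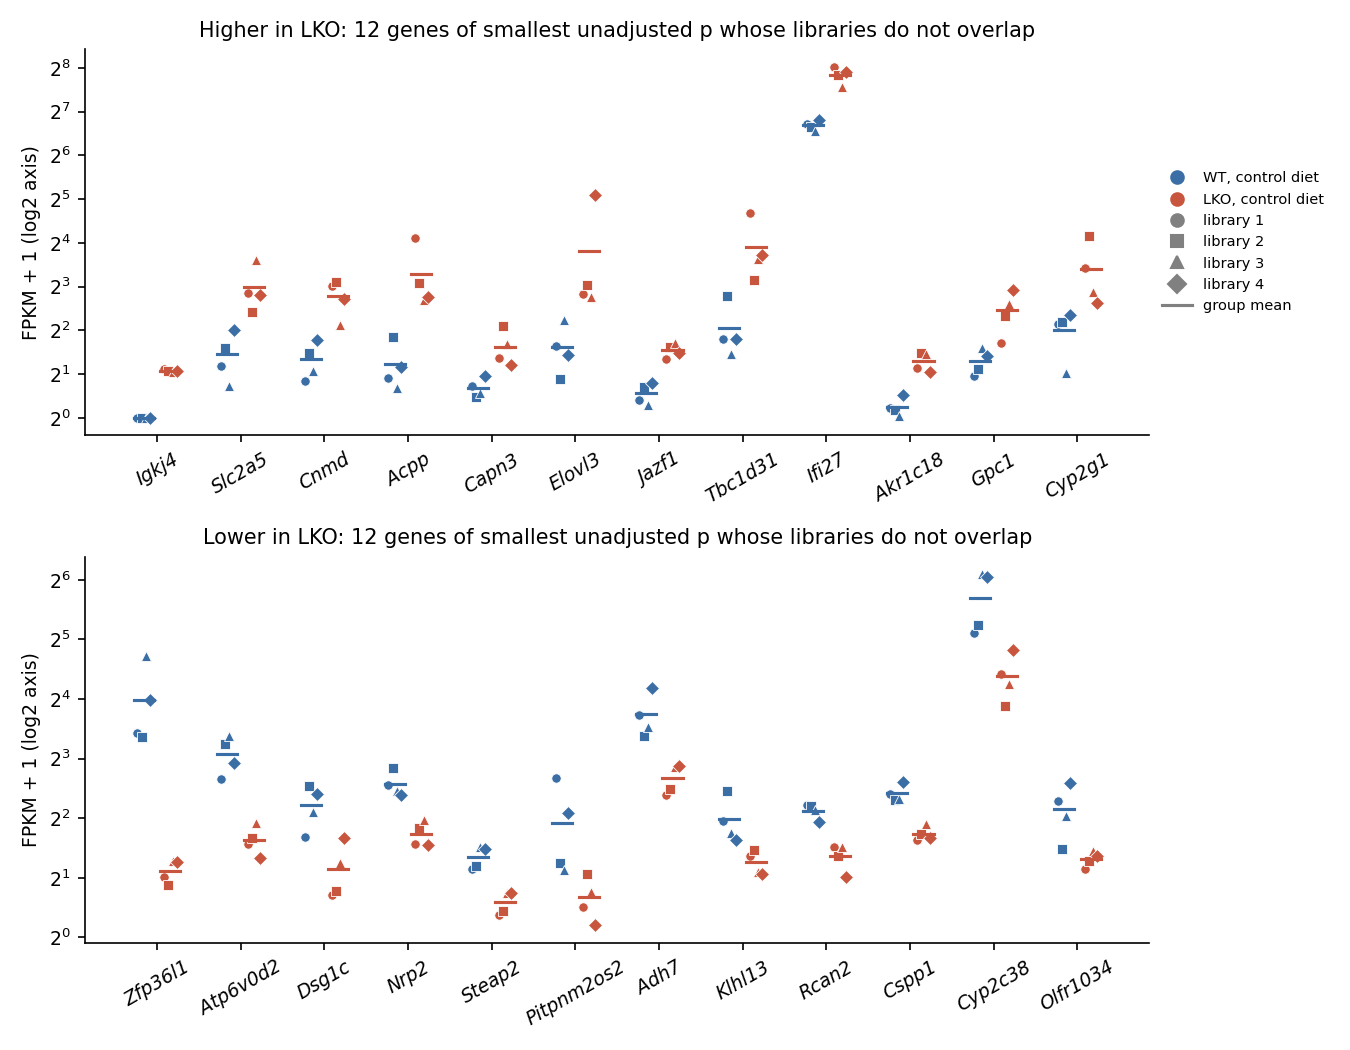
FPKM + 1 (log2 axis) of the 12 higher and the 12 lower genes of smallest unadjusted p among those whose control-diet libraries did not overlap, by library (points) with group means (horizontal lines). Most are low, and Ifi27 and Cyp2c38 are the 2 with group means above 10 FPKM in both genotypes.

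Among the higher genes of smallest unadjusted p, Slc2a5, the fructose transporter GLUT5, stood at 1.26, 2.04, 0.65 and 2.99 FPKM in WT and 6.21, 4.33, 11.2 and 6 in LKO (difference 1.55, SE 0.297, adjusted p = 0.268). Elovl3, which lengthens saturated fatty acids, stood at 2.11, 0.842, 3.68 and 1.7 FPKM in WT and 6.09, 7.26, 5.78 and 33 in LKO (difference 1.89, SE 0.428, adjusted p = 0.345). LKO library 4 was the highest for Elovl3, and the other 3 LKO libraries still lay above all WT libraries. Tbc1d31, a centriolar satellite protein, stood at 2.46, 5.84, 1.77 and 2.47 FPKM in WT and 24.7, 7.88, 11.3 and 12.1 in LKO (1.83, SE 0.424, adjusted p = 0.345). Cnmd, a cartilage glycoprotein, was at 0.805 to 2.44 FPKM in WT and 3.33 to 7.57 in LKO. Acpp, an acid phosphatase, was at 0.613 to 2.59 in WT and 5.51 to 16.4 in LKO. The protease gene Capn3, the steroid dehydrogenase gene Akr1c18, the glypican gene Gpc1 and the cytochrome gene Cyp2g1 were higher by 0.91 to 1.34. The immunoglobulin joining segment Igkj4, also in this set, rests on 1 read in each LKO library and 0 in each WT library. Over both diets, Capn3, Igkj4 and Akr1c18 reached 1 FPKM in 4, 5 and 6 LKO and in 0, 0 and 1 WT libraries, so they too passed the filter through LKO libraries. Acpp and Elovl3 reached it in 8 LKO and 3 WT libraries each, too few WT libraries to pass without LKO.

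Among the lower genes, Atp6v0d2, a subunit of the vacuolar proton pump, stood at 5.31, 8.47, 9.38 and 6.58 FPKM in WT and 1.96, 2.16, 2.77 and 1.51 in LKO (difference −1.43, SE 0.312, adjusted p = 0.345). Nrp2, a co-receptor for semaphorins and VEGF, stood at 4.91, 6.19, 4.47 and 4.23 FPKM in WT and 1.95, 2.55, 2.91 and 1.94 in LKO (−0.83, SE 0.213, adjusted p = 0.679). Adh7, an alcohol and retinol dehydrogenase, stood at 12.3, 9.44, 10.6 and 17.1 FPKM in WT and 4.24, 4.59, 6.24 and 6.32 in LKO (−1.06, SE 0.287, adjusted p = 0.784). All 3 were lower on both sides, Nrp2 by −1.01 and −0.66. Dsg1c (a desmosomal cadherin), Steap2 (a metalloreductase), Klhl13 (an adaptor of a ubiquitin ligase), Rcan2 (an inhibitor of calcineurin) and Cspp1 (a spindle pole protein) were also lower, with differences of −1.09 to −0.68 and SE of 0.192 to 0.25. Steap2 reached 1 FPKM in 6 WT and 0 LKO libraries and Dsg1c in 4 and 2.

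Genes of fatty acid and triglyceride synthesis stood higher as a list. The median difference of its 32 kept members was 0.36, against −0.103 for all genes, and 27 lay above 0. At an unadjusted p under 0.05, 6 were higher and 0 lower, beside 0.797% and 2.66% of all genes, and 0 passed the adjusted threshold. These were Elovl3, Me1, Fasn, Acly, Elovl6 and Pnpla3. Over both diets, Elovl3 reached 1 FPKM in 8 LKO and 3 WT libraries and Pnpla3 in 7 and 2. Neither would have passed the filter on its WT libraries alone, so their place in the count is not independent of their direction. Fasn, the fatty acid synthase, stood at 42.3, 208, 25.6 and 162 FPKM in WT and at 182, 131, 242 and 340 in LKO (1.42, SE 0.612, adjusted p = 1, and 0.89 without WT library 3). WT libraries 1 and 3 were low and WT libraries 2 and 4 reached the range of LKO, so the groups overlapped. Me1, the malic enzyme that supplies NADPH, stood at 39.6, 116, 31.5 and 71.7 FPKM in WT and at 169, 94.2, 133 and 188 in LKO (1.30, SE 0.477, adjusted p = 1). Acly and Elovl6 followed the same order in WT, with libraries 1 and 3 below libraries 2 and 4. The count of 6 came to 1 without WT library 3, to 2 without WT library 1 and to 3 without any of LKO libraries 1, 3 or 4. It was 3 with no filter on low genes, 4 with equal sums, and 10 with the side term and without WT ethanol library 2, where 2.85% of all genes were higher. With libraries weighted by quality, 9 were higher and 1 lower. The list's median was 0.30 and 0.33 on the sides and 0.48 after scaling by the median of ratios. Between genotypes on the ethanol diet it was 0.72, and 0.32 without WT ethanol library 2, beside −0.031 and −0.227 for all genes.

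Among 24 kept genes of lipid droplet proteins and fat uptake, 4 were lower at an unadjusted p under 0.05 (Plin4, G0s2, Vldlr, Plin5) and 0 higher, beside 2.66% and 0.797% of all genes, although the median of the list was 0.062. That median was −0.0058 to 0.085 with 1 library left out and 0.19 after scaling by the median of ratios. Plin4, a droplet coat protein, stood at 3.22, 3.14, 11.5 and 7.12 FPKM in WT and 2.04, 1.91, 1.78 and 2.56 in LKO (−1.09, SE 0.361, adjusted p = 1). G0s2, an inhibitor of fat breakdown, stood at 217, 142.2, 423 and 91.3 FPKM in WT and at 111, 92.5, 84.6 and 51.6 in LKO. WT library 3 was the highest in both genes, and the count of 4 came to 1 without it, to 1 without LKO library 4 and to 2 without WT library 2. Plin2, the main droplet coat protein of hepatocytes, overlapped (146 to 275 FPKM in WT, 159 to 321 in LKO). Among 39 genes of PPARalpha and fatty acid oxidation, 1 was lower at an unadjusted p under 0.05, a share near the 2.66% of all genes. This was Cyp4a14, a fatty acid hydroxylase, at 556, 323, 1138 and 325 FPKM in WT and 147, 279, 278 and 86.5 in LKO (−1.51, SE 0.51, adjusted p = 1). The count of 1 lower came to 3 without WT library 2 and to 2 without LKO library 2.

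Interferon-stimulated genes, which type I and II interferons induce, were mostly above 0. Of 34 kept, 26 lay above 0 with a median of 0.13, and 7 had all LKO libraries above all WT libraries, beside 1.61% of all genes. None were lower without overlap. At an unadjusted p under 0.05 there were 2, beside 0.797% of all genes, Ifi27 and Usp18 (4.87 to 9.39 FPKM in WT, 13.3 to 20 in LKO), and this count was 1 to 3 with 1 library left out, 5 with the median of ratios and 9 in the 8 control-diet libraries alone, where 2.51% of all genes were higher. Ifi27, a small interferon-induced membrane protein, stood at 105, 98.8, 92.8 and 112 FPKM in WT and at 259, 229, 187 and 241 in LKO (1.15, SE 0.289, adjusted p = 0.628 over 16 libraries and 0.0354 in the 8 control-diet libraries). Oas1a, which makes the activator of RNase L, stood at 1.42, 2.16, 1.79 and 2.27 FPKM in WT and at 5.39, 4.59, 4.58 and 5.36 in LKO. Bst2, a protein that tethers budding virus, stood at 200 to 222 FPKM in WT and 273 to 410 in LKO, and the transcription factor gene Irf7 at 15.1 to 23.8 and 29.8 to 38.3. The list's median was 0.13 and 0.14 on the sides, 0.060 without WT library 3, 0.20 without LKO library 1 and 0.24 after scaling by the median of ratios. On the ethanol diet its median between genotypes was 0.050, and −0.24 without WT ethanol library 2, beside −0.031 and −0.227 for all genes. Macrophage markers, summed, overlapped between genotypes on the control diet (243 to 655 FPKM in WT, 217 to 776 in LKO), and 12 of 13 kept lay above 0 with a median of 0.24. That median was 0.023 without LKO library 2, 0.062 without WT library 3, 0.085 without LKO library 1, 0.13 without WT library 4, 0.45 without WT library 1 and 0.52 without LKO library 4. Their part in the interferon genes was not tested.

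**Figure D3:**
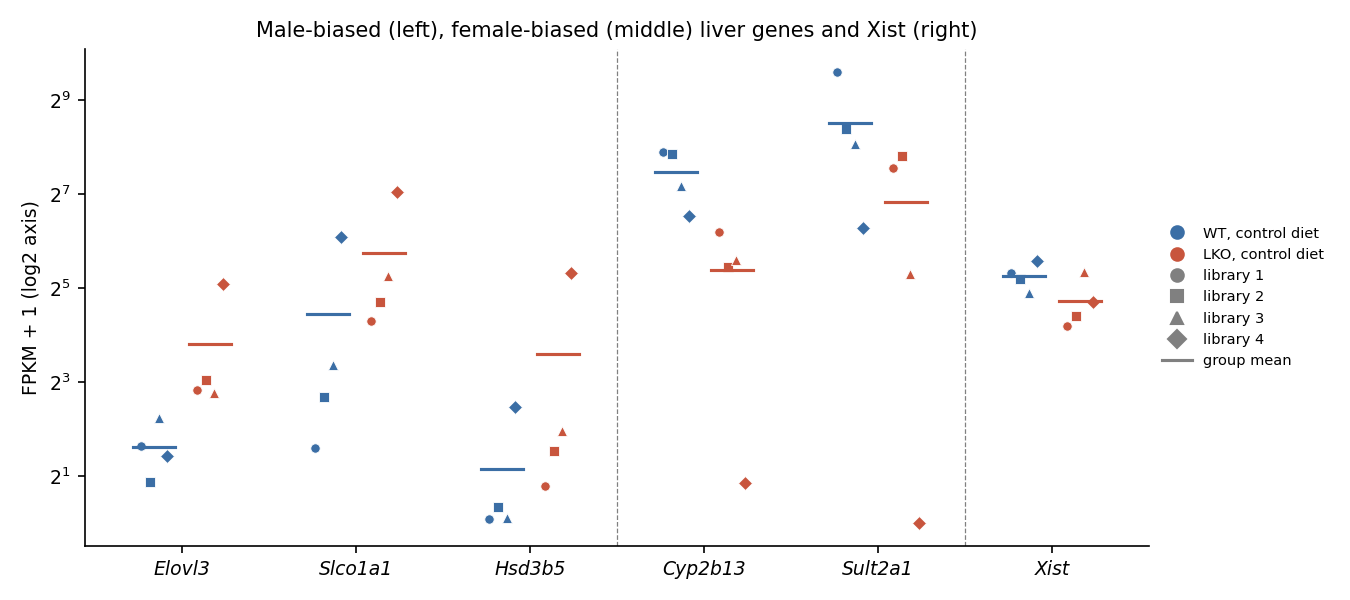
FPKM + 1 (log2 axis) of 3 male-biased and 2 female-biased liver genes and of Xist in each control-diet library (points) with group means (horizontal lines). LKO library 4 is the highest of all 8 libraries for the male-biased genes and the lowest for the female-biased genes, while its Xist (25 FPKM) lies inside the range of the others.

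The growth hormone list held genes that moved in opposite ways. Pulses of growth hormone set the male pattern of liver genes and a steadier level the female pattern. All 8 livers had Xist, the X-inactivation transcript, at 17.4 to 46.4 FPKM, and the 4 Y-linked genes examined were at 0.0423 FPKM or below. Of the list's 32 kept members, 3 were higher (Elovl3, Slco1a1, Hsd3b5) and 3 lower (Cyp2b13 and Sult2a1 among them) at an unadjusted p under 0.05, beside 0.797% and 2.66% of all genes. The 3 higher came to 1 without WT library 1, WT library 2 or LKO library 4. The higher 3 are known as male-biased and the lower 3 as female-biased, a split of the list made after the values were seen. Slco1a1, an organic anion transporter, stood at 2.01, 5.38, 9.36 and 66.4 FPKM in WT and 18.7, 24.9, 37 and 131 in LKO (1.89, SE 0.714, adjusted p = 1). Library 4 was the highest in both genotypes, and within the remaining libraries all LKO values were above all WT values. Hsd3b5, a steroid dehydrogenase, stood at 0.0654, 0.261, 0.0768 and 4.52 FPKM in WT and 0.74, 1.89, 2.9 and 39.2 in LKO. Again library 4 was the highest in both. Over both diets, Hsd3b5 reached 1 FPKM in 3 LKO and 1 WT libraries and Elovl3 in 8 and 3. Neither would have passed the filter on its WT libraries alone.

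The female-biased genes ran the other way. Cyp2b13, a cytochrome, stood at 238, 228, 142.6 and 91.5 FPKM in WT and 72.4, 42.4, 47.1 and 0.801 in LKO (−2.84, SE 0.991, adjusted p = 1). LKO libraries 1 to 3 lay below all WT libraries and LKO library 4 was close to 0, and the difference was −1.62 without it. Sult2a1, a bile acid and steroid sulfotransferase, stood at 774, 334, 267 and 76.3 FPKM in WT and at 186, 224, 38.4 and 0 in LKO, with overlap. Over 8 male-biased members kept, 7 lay above 0 with a median of 0.79, and over 8 female-biased members 7 lay below 0 with a median of −0.90. Without LKO library 4, these medians were 0.42 and −0.26, and the counts at an unadjusted p under 0.05 went from 3 to 1 in each set. The male-biased median was 0.29 on the first side and 1.35 on the second, and the female-biased median −0.87 and −1.27. Between genotypes on the ethanol diet, the male-biased median was 0.11 and the female-biased median 0.42, with 6 and 5 of 8 above 0, and they were 0.053 and 0.13 without WT ethanol library 2, where that of all genes was −0.227. Over all 16 libraries, Xist went down to 6.62 FPKM, in WT ethanol library 2, and the Y-linked gene Ddx3y reached 1.43.

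Among 38 kept targets of the xenobiotic receptors CAR and PXR, 4 were lower at an unadjusted p under 0.05 and 0 higher (Cyp3a11, Cyp2b13, Aldh1a1, Gadd45b), beside 2.66% and 0.797% of all genes. The list's median was −0.165, and −0.032 after scaling by the median of ratios. With 1 library left out it was −0.241 to −0.104, the latter without LKO library 4 and near the −0.103 of all genes. Aldh1a1, a retinaldehyde dehydrogenase, stood at 625, 516, 508 and 271 FPKM in WT and 309, 197.9, 214.1 and 326 in LKO, where libraries 1 and 4 lay above the lowest WT library. Of 22 kept pericentral hepatocyte genes, 3 were lower at an unadjusted p under 0.05, namely Aldh1a1 and the Wnt-responsive Axin2 and Tbx3, beside 2.66% of all genes. The count of 3 came to 1 without WT library 3, WT library 4 or LKO library 1 and to 0 without LKO library 2. The pericentral median was −0.12, near that of all genes (−0.103), and 0.015 after scaling by the median of ratios. The 19 kept periportal hepatocyte genes had a median of 0.239, and 0.371 after that scaling, with 14 above 0. With 1 library left out it was 0.13 to 0.307. Of them, 3 were higher without overlap, beside 1.61% of all genes, and 0 had an unadjusted p under 0.05. Axin2 stood at 1.8 to 4.1 FPKM in WT and 0.99 to 1.94 in LKO. Cry1, a repressor of the circadian clock, stood at 4.42, 4.92, 20.7 and 5.38 FPKM in WT and at 2.16, 2.52, 4.24 and 3.52 in LKO (−1.02, SE 0.407, adjusted p = 1), and Clock, its activator, was lower by −0.62. WT library 3 was the highest for Cry1, as it was for Clock and Fgf21, and without it the differences of Cry1 and Clock were −0.55 and −0.41. These were the 2 of 20 kept clock genes at an unadjusted p under 0.05, and the count came to 0 without WT library 3, LKO library 1 or LKO library 2, to 1 without LKO library 4, and to 3 lower without WT library 1. Without WT library 4 it was 2 higher and 2 lower. Irs1, which relays the insulin signal, stood at 1.54, 1.45, 2.36 and 1.64 FPKM in WT and 0.706, 0.568, 0.976 and 0.507 in LKO (−0.70, SE 0.235, adjusted p = 1). Over both diets, Irs1 reached 1 FPKM in 6 WT and 3 LKO libraries.

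Of the 30 gene lists examined, 12 had no member at an unadjusted p under 0.05 in the main fit, among them the inflammatory cytokines, acute phase proteins, cholesterol synthesis, apolipoproteins and endoplasmic reticulum chaperones. Without WT ethanol library 2, 3 of 18 apolipoproteins were higher and 1 lower, beside 1.65% and 7.96% of all genes. Higher without overlap were 2 of the 18, beside 1.61%. In the 8 control-diet libraries alone, 2 of 30 acute phase proteins were higher and 1 lower, beside 2.51% and 11.7%. The chaperones had 0 in both these fits. The inflammatory cytokine gene Ccl2 differed by 0.12 (SE 0.738), the acute phase gene Saa1 by −0.35 (SE 0.933), and the iron hormone gene Hamp by 0.80 (SE 0.605), all with an adjusted p of 1. With 1 library left out, Saa1 ranged from −0.91 to −0.013, and Hamp was 0.46 without LKO library 1. Of 10 lists of cell markers, 9 had a kept gene, and 8 of these had no member at an unadjusted p under 0.05 in the main fit. The exception was Cela1, an elastase listed as a pancreatic marker, at 9.38 to 16.6 FPKM in WT and 17.3 to 27 in LKO. It missed that threshold without WT library 1, 3 or 4 or LKO library 2, and with equal sums, quantile normalization or the upper quartile. The defining pancreatic transcripts Amy2a5, Cpa1, Prss2 and Try4 were at 0 in all 8 libraries. Kept genes within 2 Mb of Zfp36l1, 22 without itself, differed by −0.48 to 0.62, and the smallest unadjusted p was 0.0595.

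**Figure D4:**
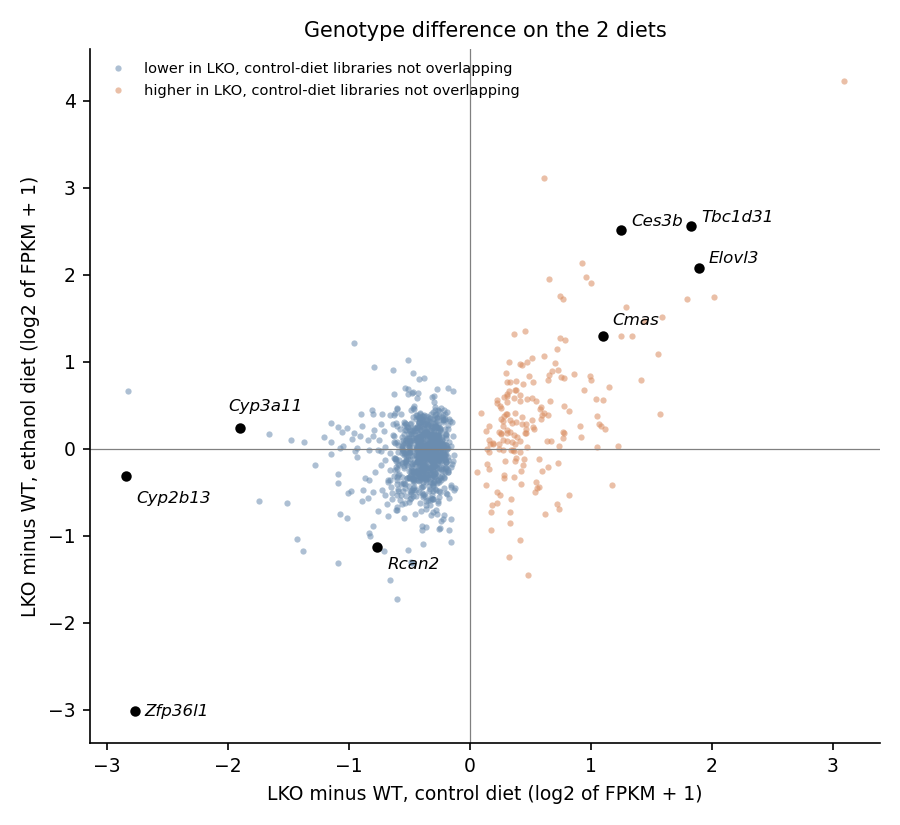
Difference between LKO and WT on the control diet (x axis) and on the ethanol diet (y axis), both in log2(FPKM + 1), for the 1045 genes whose control-diet libraries did not overlap. Zfp36l1, Cmas, Elovl3, Tbc1d31 and Ces3b keep their direction on both diets, whereas Cyp3a11 lies near 0 on the ethanol diet (0.24).

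The ethanol-diet libraries, WT ethanol library 2 among them, gave the same genotype contrast in other livers, with no library in common. There, 9 genes were called (0.0797%), and 304 did not overlap between genotypes (2.69%), 101 higher (0.894%) and 203 lower (1.8%). Without overlap on both diets, 18 genes were higher on both (0.159%), 29 were lower on both (0.257%) and 0 went opposite ways. The higher set held Slc2a5, Cnmd, Elovl3, Jazf1, Tbc1d31, Nxpe2, Slc15a5, Cmas, H2-Q10 and Ces3b as the 10 of smallest control-diet p. H2-Q10, a secreted class I histocompatibility molecule, stood at 419, 467, 473 and 493 FPKM in WT and 746, 676, 592 and 789 in LKO on the control diet (0.59, SE 0.213), and differed by 0.48 on the ethanol diet. Ces3b, a carboxylesterase, stood at 72.8, 84.3, 38.4 and 124 FPKM in WT and 168, 167, 182 and 191.2 in LKO on the control diet (1.25, SE 0.49), and differed by 2.51 on the ethanol diet. The lower set began with Zfp36l1, Atp6v0d2, Steap2, Rcan2, Ccdc28b, Dnajc18, Zbtb21, Mtf2, Serpine2 and Rel. These 10 lower genes differed by −2.77 to −0.36 on the control diet and by −3.02 to −0.29 on the ethanol diet. The 10 higher genes differed by 0.59 to 1.89 and by 0.48 to 2.56. All these ethanol-diet differences include WT ethanol library 2. Among the lower genes, Mtf2 encodes a polycomb protein and Rel a subunit of NF-kappaB. Rel reached 1 FPKM in 4 WT and 0 LKO libraries and Slc15a5 in 4 LKO and 0 WT libraries, so these also passed the filter through 1 genotype.

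Among the 182 genes whose LKO libraries all lay above WT on the control diet, 136 (74.7%) were above 0 on the ethanol diet, where 46.5% of all genes were. Of the 863 lower genes, 490 (56.8%) were below 0 there, beside 53.5% of all genes. Without WT ethanol library 2, the shares were 59.3% of the higher genes beside 19.2% of all, and 91.8% of the lower genes beside 80.8% of all. Cyp3a11 differed by 0.24 on the ethanol diet (adjusted p = 0.904) and Adh7 by 0.19 (adjusted p = 0.833). Both values include WT ethanol library 2. Without that library, the median of the CAR and PXR list between genotypes on the ethanol diet went from 0.627 to 0.289. The median of all genes went from −0.031 to −0.227. The difference between the diets was tested by the interaction for every gene, and 0 passed the adjusted threshold (limma), with 362 at an unadjusted p under 0.05 (3.2%). For Cyp3a11 and Adh7 its adjusted p was 0.927 each.

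**Figure D5:**
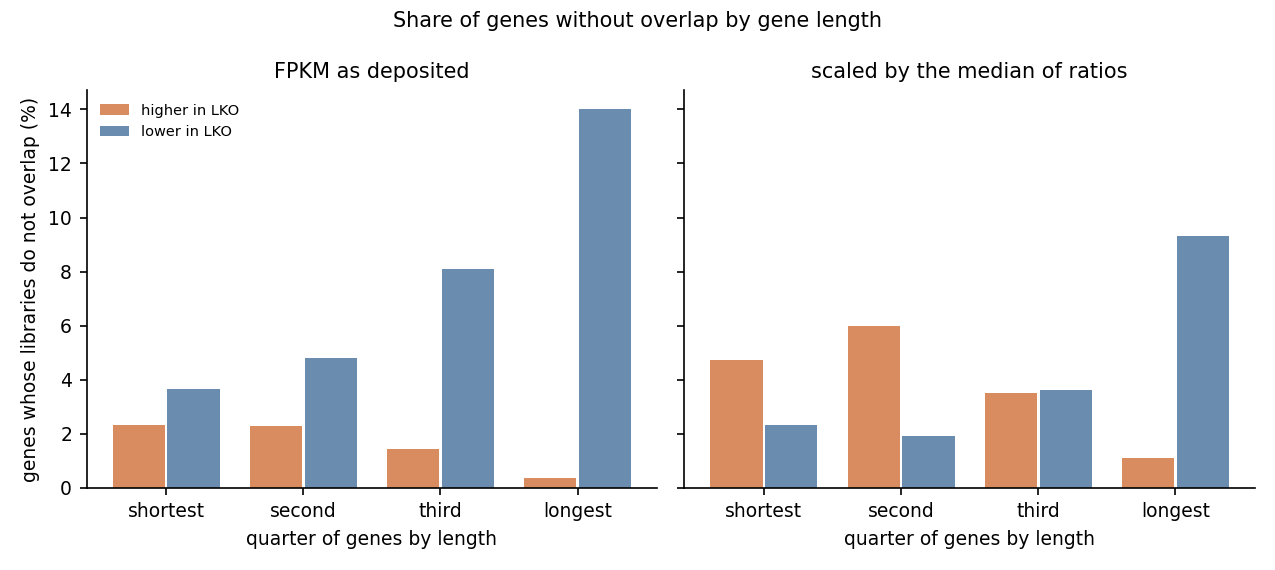
Share of genes (%) whose control-diet libraries did not overlap, higher or lower in LKO, in 4 classes of gene length of equal size, in FPKM as deposited (left) and after scaling by the median of ratios (right). The share lower in LKO is largest in the longest class on both scales, 14% and 9.31%.

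What the separated genes shared was described without a test. Gene length, as worked out from the deposited values, went with the direction. Genes were put into 4 length classes of equal size. Of the shortest class (up to 1795 bases), 2.34% were higher and 3.64% lower without overlap, and of the longest class (4311 bases or more), 0.354% and 14%. After scaling by the median of ratios these were 4.74% and 2.34% in the shortest and 1.1% and 9.31% in the longest class. The median difference went from 0.027 in the shortest class to −0.28 in the longest on the first side, and from −0.051 to −0.15 on the second. On the ethanol diet the medians of the shortest and longest classes were −0.11 and −0.031. Antisense genes, 166 in all, were lower without overlap in 13.9% and higher in 3.01%. The 10563 protein-coding genes were so in 7.47% and 1.62%, and 77 genes annotated as processed transcripts in 15.6% and 2.6%. Whether counting used the strand is not given in the sources used here, so antisense genes and the genes they overlap cannot be told apart.

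The AU-rich 7-mer was found in the 3′ UTR of 40 of 171 higher genes (23.4%) and of 322 of 785 lower genes (41%), beside 29.1% of all. The lower genes had longer 3′ UTRs (median 1865 bases, higher genes 853, all genes 1112), and length and motif go together. Among genes with a 3′ UTR of 1 to 500 bases, 11 of those with the motif (5.53%) were higher and 4 (2.01%) lower, beside 2.11% and 3.47% of the 2565 without it. Cmas is in this class, with a 3′ UTR of 374 bases. Between 500 and 2000 bases there was a shorter and a longer class, and the motif made little difference in either. In the shorter, genes with the motif were higher in 2.27% and lower in 5.54%, and those without it in 1.61% and 6.06%. In the longer, the shares were 1.69% and 7.97% with the motif and 2% and 7.32% without it. Among 3′ UTRs over 2000 bases, genes with the motif were higher in 0.365% and lower in 14%, and those without it in 0.959% and 10.1%. The motif thus did not go with the same direction in all classes. A motif match describes the letters of the annotated transcript and is not a measured binding site.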

How the data were processed

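The authors deposited 1 table of FPKM values for 35275 gene IDs and 16 liver libraries. Per the submitters' processing notes, fastp, STAR 2.6.1, HTSeq, DESeq2 and mm10 were used, with no roles given. FPKM values were whole multiples of 1 read (100% within 0.1 read), which gave reads and gene lengths. Symbols and positions come from GENCODE M21 (GRCm38).

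Genes with at least 1 FPKM in at least 4 of 16 libraries were kept. A means model of 4 groups was fitted to log2(FPKM + 1) with limma 3.58.1 (R 4.3.3, eBayes with trend), two-sided, with Benjamini-Hochberg adjustment over all genes kept. This scale understates differences of low genes. The fit was run on simulated reads with known changes. These were drawn with 1 setting of spread for all libraries and without sides, so that run says nothing about either. No count test was run because the table holds FPKM, and limma's voom on the recovered reads was an alternative. Other alternatives were the pseudocount, the filter, 4 scalings, array weights, the side term, other sets of libraries and leaving out each library. Sides are the sign of the first component of variation within groups.

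The comparison, the 30 gene lists and 10 marker lists were chosen with earlier results of these data known. Named are the 12 genes put to the exact permutation test, genes called with or without WT ethanol library 2 or the side term, the 12 genes each way without overlap of smallest unadjusted p (Gm and Rik names and pseudogenes passed over), up to 10 each way without overlap on both diets, genes within 2 Mb of Zfp36l1, and up to 4 per list. The split by sex bias was made after the values were seen, and Elovl6, Pnpla3, Irf7, Hsd3b5 and Sult2a1, which fall outside this rule, were also chosen then. Values of 2 genes that the rule names are not reported here.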

Additional observations from a re-analysis of the deposited data

Results flagged for a closer look

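In a group of 4, a library was marked when its distance to the nearest other library was larger, as a share of the group's range on the log2(FPKM + 1) scale, than Dixon's critical value. Chance marks about 1 in 20 such groups, and 7 of the 160 groups examined were marked. LKO control library 4 was marked 2 times, for the growth hormone dependent genes Elovl3 (33 FPKM, others 5.78 to 7.26) and Cyp2b13 (0.801 FPKM, others 42.4 to 72.4). WT control library 4 was marked for Hsd3b5 (4.52 FPKM, others 0.0654 to 0.261) and for Plin2 (146 FPKM, others 254 to 275). WT control library 3 was marked for Cry1 (20.7 FPKM, others 4.42 to 5.38) and for Cyp2g1 (1.02 FPKM, others 3.45 to 4.09). LKO control library 3 was marked for Fgf21 (13.1 FPKM, others 6.47 to 7.04).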

How the results depend on the processing

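Zfp36l1 kept its direction and stayed under an adjusted p of 0.05 in every alternative run. The count of genes called (1) was 2 with quantile normalization, 5 without WT ethanol library 2, 9 with the side term as well, 13 with the 8 control-diet libraries alone and 260 (2.3%) with array weights. It was 410 (3.63%) with the 8 control-diet libraries and a side term, chosen after seeing the data. The sides come from the same values, so p-values of every fit with the side term are too small. Leaving out 1 control-diet library gave 1 each time. The median difference of all genes (−0.103) was −0.022 without a filter, −0.0023 with quantile normalization and 0.00064, the other sign, with the median of ratios. Genes without overlap (1045) numbered 1222 to 2034 with 1 library left out, which has fewer libraries to separate. The highest count was without LKO control library 3. Fgf21 (−0.13) ranged from −0.45 to 0.53 with 1 library left out, the latter without WT control library 3. For genes far from a call the sign also turned. Zfp36 was 0.11 with the median of ratios, 0.018 with the upper quartile, 0.079 with array weights and −0.22 to 0.35 with 1 library left out. Plin2 was 0.10, 0.0093 and 0.033 under those 3 settings and −0.24 to 0.13 with 1 library left out. Such ranges were −0.10 to 0.38 for Zfp36l2 and −0.14 to 0.25 for Ccl2. Over the 75 other genes named, 1567 of 1645 values kept direction and side of the threshold, 62 newly passed it and 16 changed sign. The interaction count was also 0 without WT ethanol library 2, and the permutation count was also 0 with a pseudocount of 0.1 or 0.5, both added after seeing the data. The permutation count could hardly be other than 0 and says nothing about stability. No paired analysis was possible because the labels give no replicate numbers shared between groups. Genes under 1 FPKM rest on few reads, such as 12 to 34 for Jazf1 in WT.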
